A study of Bos taurus with 2 samples.

Results

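The 28 small ribosomal subunit protein genes are the 27 RPS genes RPSA, RPS2, RPS3, RPS3A, RPS4X, RPS6, RPS7, RPS9, RPS10, RPS12, RPS13, RPS14, RPS15, RPS15A, RPS16, RPS18, RPS19, RPS20, RPS21, RPS23, RPS24, RPS25, RPS26, RPS27, RPS27A, RPS28 and RPS29, together with FAU. They were chosen by gene name among the non-control probes of an Agilent bovine expression array, on which they are 28 of 17073 named genes and hold 104 of 43652 probes. RNA was taken from whey of raw milk from Holstein cattle. Whey was spun for 90 min at a labelled force of 10000 g, which is low for the ultracentrifugation that the labels name. The washed pellet, which the submitters named exosome, was measured on 1 array, and the fluid left above it, the supernatant, on 1 other array. Each array carried an equal mix of the RNA of 3 samples, of which 100 ng was amplified and labelled with Cy3. There is therefore 1 array per fraction, no replicate and no test, and every difference below is a description of these arrays.

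The small subunit of the cytoplasmic ribosome binds the mRNA and reads its codons, and each of its proteins is made from its own gene. The mRNAs of these proteins are short and abundant and begin with a tract of pyrimidines, through which growth signals set their translation together. In human ribosomes the proteins fall into a head, which faces the codon-reading and exit sites, and a body with its platform. The lactating mammary epithelium makes ribosomes in large numbers because it exports milk protein. RNA in whey can lie inside vesicles, in remnants of shed cells or free in the fluid.

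All 28 genes had at least 1 probe well above background in exosome RNA, as did 66.5% of all named genes. On the supernatant array 26 of the 28 did, against 22.2% of all named genes, and RPS9 and RPS14 did not. Among the 104 probes, 93 were well above background in exosome RNA, where the share over all named probes was 60.9%. On the supernatant array 76 were, or 73.1% of the members' probes, where the share over all named probes was 13.1%. All 76 of those were also detected in exosome RNA, 17 probes were detected in exosome RNA alone, 11 on neither and 0 in supernatant RNA alone. A gene had 2 to 8 probes, with a median of 3. Every probe of the gene was detected for 18 genes in exosome RNA and for 8 genes in supernatant RNA.

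On the 76 probes measured on both arrays, processed signals in scanner units were 20807 to 253469 in exosome RNA, with a median of 100186, against 9.86 to 502 in supernatant RNA, with a median of 58.6. The exosome and supernatant signals of these probes did not overlap. The exosome array was brighter for most genes: unscaled, 82.7% of all 3540 genes measured on both were at least 2-fold brighter there. The share of other genes without overlap was not computed. The scanner software's own error per spot on these probes was 10% of the signal in exosome RNA and 10 to 22.1% in supernatant RNA, which is small beside these differences. It covers the reading of a spot, not the spread between milk samples.

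**Figure D1:**
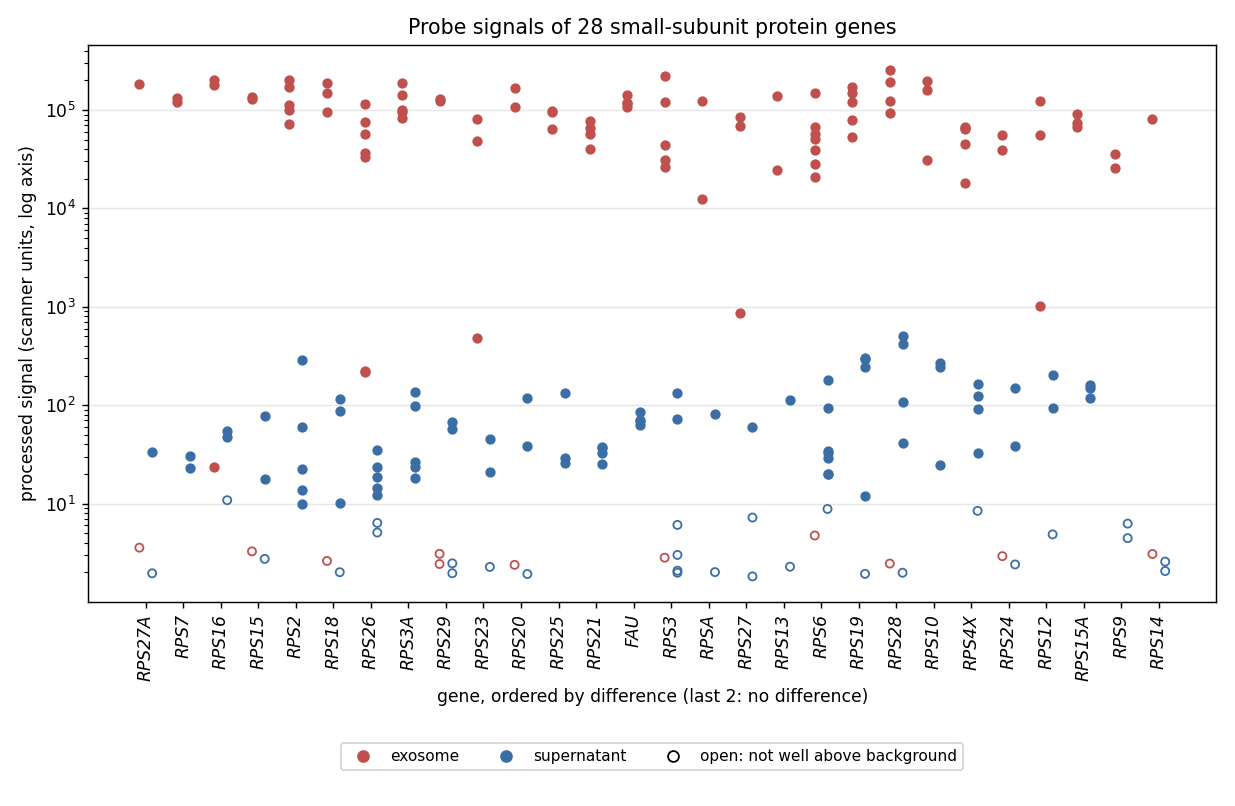
Processed signal of every probe of the 28 genes, on a logarithmic axis in scanner units, with exosome points left of supernatant points for each gene and open points for probes not well above background. The probes measured on both arrays lie between 20807 and 253469 in exosome RNA and between 9.86 and 502 in supernatant RNA; exosome points not well above background are all probes designed on expressed sequence tags.

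The arrays as a whole were far apart in brightness, and this sets how a difference can be read. Signals at the 75th percentile of all spots were 248 in exosome RNA and 5.24 in supernatant RNA, and 25524 and 5734 probes were well above background. The median named gene measured on both arrays was brighter in exosome RNA by 3.42 on the log2 scale over 3540 genes, and the 8 spike-in control probes were brighter there by a mean of 1.96. Differences are therefore given as log2 of the exosome over the supernatant signal, averaged over a gene's probes measured on both arrays, minus 3.42. A value of 1 means that the gene lies 2-fold further to the exosome side than the median gene. How much of the difference in brightness between the arrays came from the RNA and how much from labelling or hybridisation was not tested. The fractions were loaded by mass, so the values compare shares of the labelled RNA and not amounts per volume of whey.

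Of the 26 members measured on both arrays, 26 lay at least 2-fold above the median gene, where 37.7% of all 3540 genes did. Their median was 7.35 above the median gene, or 164-fold, and the values lay between 5.67 and 9.0. Without any scaling the members' median difference was 10.77, or 1748-fold, and 26 of 26 were at least 2-fold brighter in exosome RNA, where 82.7% of all genes were. After each array was divided by its 75th percentile the median was 5.21 and again 26 of 26 passed 2-fold, where 17.8% of all genes did. Of all 3540 genes, 47 or 1.33% lay above the members' median and 169, or 4.77%, at or above the lowest member. These counts leave out the genes not detected in the supernatant, for which no difference can be computed.

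The probes that carry these values are 60 bases long. Those below show the gene with the largest difference measured on both arrays and the 2 genes detected in exosome RNA alone. The name gives the gene and the position in the transcript at which the probe starts, and all letters are in lower case because no part of them is singled out.
RPS27A-360: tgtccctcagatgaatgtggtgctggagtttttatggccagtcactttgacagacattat
RPS14-133: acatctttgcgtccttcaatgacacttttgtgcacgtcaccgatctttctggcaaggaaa
RPS9-274: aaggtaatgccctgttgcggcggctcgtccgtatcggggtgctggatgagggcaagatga
In the array's annotation, on build HGSC Btau_3.1, the first lies at chr11:39477698-39477757 on the plus strand. The RPS14 probe spans chr7:61245013-61245565 on the minus strand and the RPS9 probe chr18:63610890-63616289 on the plus strand. Both spans are longer than 60 bases, so these probes cross exon junctions.

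RPS27A and FAU are made as fusions, of ubiquitin with a ribosomal protein in the first and of a ubiquitin-like protein with one in the second, and both are cut apart after translation. RPS27A had the largest difference of the 26 members measured on both arrays, 9.0 above the median gene. The unscaled difference of RPS14, not detected in supernatant RNA, was at least 13.13, against 12.42 in RPS27A. The RPS27A value came from 1 probe with a signal of 182322 in exosome RNA and 33.2 in supernatant RNA. The other RPS27A probe was designed on an expressed sequence tag and was detected on neither array. FAU lay at 7.31, near the members' median, and its 4 probes gave signals of 108137 to 142304 in exosome RNA and 62.8 to 85.3 in supernatant RNA. All 4 were detected on both arrays.

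Among the other proteins of the head, RPS16, which reaches the site where the initiator tRNA sits, and RPS15, which lies beside the decoding site, were next at 8.47 and 8.38. RPS16 had 202408 and 180636 in exosome RNA against 54.0 and 47.4 in supernatant RNA for its 2 RefSeq probes, and RPS15 had 128186 and 135809 against 17.8 and 76.8. On these probes every exosome value lay far above every supernatant value, as on all the members' probes measured on both arrays. The exosome array was brighter for most genes, and how many other genes show such a gap was not computed. The tag probes of RPS16 and RPS15 had 23.5 and 3.26 in exosome RNA. RPS18, a head protein that touches the large subunit, followed at 8.13, with 95840 to 190011 in exosome RNA and 10.1 to 116 in supernatant RNA. RPS29, a small zinc-binding protein, lay at 7.57, with 127944 and 123340 in exosome RNA and 57.5 and 67.0 in supernatant RNA.

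RPS20, which is marked with ubiquitin when ribosomes collide in human cells, lay at 7.53, with 106454 and 165735 in exosome RNA and 38.2 and 119 in supernatant RNA. RPS25, which many viral internal ribosome entry sites need in human cells and yeast, lay at 7.42, with 64568 to 97930 in exosome RNA and 25.8 to 133 in supernatant RNA. RPS3, which lines the channel where mRNA enters and also acts in DNA repair in human cells, lay at 7.29 over the 2 probes that both arrays detected.

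The lower part of the head group held RPS19, RPS28, RPS10 and RPS12. RPS19, the gene most often mutated in Diamond-Blackfan anaemia in humans, lay at 6.53. RPS28, a small protein near the mRNA exit, lay at 6.37, with 94146 to 253469 in exosome RNA and 40.8 to 502 in supernatant RNA. RPS10, another target of ubiquitin at collided ribosomes in human cells, lay at 6.31, with 31112 to 196007 in exosome RNA and 24.9 to 267 in supernatant RNA. RPS12 had the lowest value of the head, 5.84. The 12 head genes had a median of 7.47 and a range of 5.84 to 9.0.

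Among the body genes measured on both arrays, RPS7, which also binds the p53 regulator MDM2 in human cells, came first at 8.81. Its 2 probes had 131241 and 120833 in exosome RNA against 30.2 and 22.9 in supernatant RNA. RPS2, at the mRNA entry channel, lay at 8.36. RPS26, which contacts mRNA near the exit, lay at 8.10 over 5 probes, with 33048 to 114800 in exosome RNA and 12.1 to 35.3 in supernatant RNA. RPS3A lay at 7.98, with 82909 to 188411 in exosome RNA and 18.3 to 137 in supernatant RNA. On the probes detected on both arrays the exosome and supernatant values of these genes did not overlap, as for all such probes of the members. Most genes were brighter on the exosome array, and the share of other genes without overlap was not computed.

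RPS23, whose conserved loop reaches the decoding centre, lay at 7.56, with 81137 and 48471 in exosome RNA and 45.8 and 21.1 in supernatant RNA for the 2 probes detected on both arrays. RPS21 lay at 7.40, with 40357 to 77546 in exosome RNA and 25.1 to 37.3 in supernatant RNA. RPSA, also known as the laminin receptor, lay at 7.15 from 1 probe with 123349 in exosome RNA and 81.2 in supernatant RNA. Its other probe had 12374 in exosome RNA and 2.01 in supernatant RNA, where it was not well above background. RPS27, a zinc-binding protein, lay at 7.06 from 1 probe with 84950 in exosome RNA and 59.6 in supernatant RNA. The RPS27 probe at 177 had 68007 in exosome RNA and 7.21 in supernatant RNA, where it was not well above background. The unscaled difference was at least 12.88 at that probe, against 10.48 at the measured one. RPS13 lay at 6.84, also from 1 probe, with 138378 in exosome RNA and 113 in supernatant RNA. The RPS13 probe at 277 had 24331 in exosome RNA and 2.28 in supernatant RNA, where it was not well above background. The unscaled difference was at least 11.39 at that probe, against 10.26 at the measured one.

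RPS6, which S6 kinases phosphorylate in response to growth signals, lay at 6.78 over 7 probes, with 20807 to 148305 in exosome RNA and 19.8 to 179 in supernatant RNA. The lowest measured body genes were RPS4X, whose gene is on the X chromosome, at 5.99, RPS24 at 5.85 and RPS15A at 5.67. The RPS4X probe at 404 had 18276 in exosome RNA and 8.43 in supernatant RNA, where it was not well above background. RPS24 is another Diamond-Blackfan anaemia gene in humans. RPS24 had 55845 and 39190 in exosome RNA and 38.8 and 148 in supernatant RNA. The 3 probes of RPS15A had 67387 to 91253 in exosome RNA and 117 to 161 in supernatant RNA. The 14 measured body genes had a median of 7.23 and a range of 5.67 to 8.81, so the head and body ranges overlapped almost wholly.

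RPS9 and RPS14 belong to the body and had no probe well above background in supernatant RNA. RPS9, whose yeast counterpart helps to keep decoding accurate, had 36072 and 25857 in exosome RNA against 6.25 and 4.45 in supernatant RNA. RPS14, whose loss of 1 copy underlies the anaemia of a human myelodysplastic syndrome, had 81025 in exosome RNA against 2.06 in supernatant RNA. For these probes the signal of the supernatant is only a bound, set at the lowest signal of a well-detected probe there, 9.04. Against that bound RPS14 was at least 8964-fold and RPS9 at least 3379-fold brighter in exosome RNA, without scaling. With the scanner software's weaker detection flag all 28 members count as detected in supernatant RNA, and RPS14 then has the largest difference, 11.96 above the median gene. That value rests on 1 probe whose supernatant signal of 2.06 had an error of 2.01 and lay below 9.04, so its size is not resolved.

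The order of neighbouring members is not resolved by these data. There were 20 pairs of RefSeq probes of the same gene, in 15 genes, that started within 30 bases of each other and so read nearly the same stretch. Their differences between exosome and supernatant deviated from each other by a median of 0.14 and at most by 0.71, in RPS25, and all 20 pairs stayed within 2-fold. This corresponds to an SD of 0.20 for 1 probe. Probes spread over the whole gene varied more, with a pooled within-gene SD of 1.06 over 22 genes and a largest range of 4.02 in RPS19. The step between one gene and the next in the order is smaller than this spread for all neighbours, whereas the distance of every measured member from the median gene is several times larger.

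Some overlapping probes differ by single letters, and 3 such pairs are printed with the differing bases in capitals.
RPS6-715: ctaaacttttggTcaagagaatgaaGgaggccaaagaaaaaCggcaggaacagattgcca
RPS6-718: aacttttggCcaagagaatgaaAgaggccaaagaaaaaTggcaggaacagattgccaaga
RPS2-303: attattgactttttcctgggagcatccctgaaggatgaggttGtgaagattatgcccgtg
RPS2-308: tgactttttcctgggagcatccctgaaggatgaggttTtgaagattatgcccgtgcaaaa
RPS3A-621: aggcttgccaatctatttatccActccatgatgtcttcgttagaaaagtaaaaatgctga
RPS3A-627: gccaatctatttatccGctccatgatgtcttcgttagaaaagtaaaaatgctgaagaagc
Counted from 1 at the 5′ end of the first probe of a pair, the substitutions are T13C, G26A and C42T in RPS6, G43T in RPS2 and A23G in RPS3A. The RPS6 probe at 715 had 39412 in exosome RNA and 34.6 in supernatant RNA, and the one at 718 had 20807 and 19.8. The unscaled differences were 10.15 and 10.03. In RPS2 the unscaled differences were 12.82 and 12.81, and in RPS3A 12.40 and 12.07. Of the 20 pairs, 10 had no substitution, and these deviated by up to 0.56, in RPS19. The largest deviation of all pairs, 0.71 in RPS25, was in a pair with 3 substitutions, and the RPS23 pair with 2 deviated by 0.38. An effect of the substitutions was not tested.

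Within a gene, the difference varied with where along the transcript a probe lay. RPS19 shows this most clearly, and its probes are given from the 5′ side to the 3′ side, the last as a window of 30 bases with the polyadenylation signal AATAAA in capitals.
RPS19-89: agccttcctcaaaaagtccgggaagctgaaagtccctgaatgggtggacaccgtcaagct
RPS19-170: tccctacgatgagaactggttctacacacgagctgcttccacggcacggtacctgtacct
RPS19-439: agaacaaatgatgctgggttAATAAAttgc
These probes span chr18:51093244-51093586, chr18:51088300-51093222 and chr18:51086630-51087575 on the minus strand of build HGSC Btau_3.1. The RPS19 probe at 89 had 53645 in exosome RNA and 1.93 in supernatant RNA, where it was not well above background. The probe at 170 had 78896 in exosome RNA and 11.9 in supernatant RNA, and the probe at 439 had 147184 and 244. The unscaled difference was 12.70 at 170 and 9.24 at 439, and at 89 it was at least 12.53.

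RPS2 had the same order between its first and last probes, with all of its probes measured on both arrays. Its probes at 303, 490, 799 and 869 had 71372, 171243, 112315 and 203389 in exosome RNA, against 9.86, 22.2, 59.7 and 288 in supernatant RNA. The unscaled differences were 12.82, 12.91, 10.88 and 9.46 in that order. In RPS3 the probes at 242, 250 and 469 were detected in exosome RNA alone, with 30808, 26082 and 44036 there and 2.08, 1.98 and 6.07 in supernatant RNA. The RPS3 probes at 756 and 774 were detected on both arrays, with 223676 and 120973 in exosome RNA and 133 and 73.0 in supernatant RNA.
RPS2-490: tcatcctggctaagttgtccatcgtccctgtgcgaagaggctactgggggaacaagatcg
RPS2-799: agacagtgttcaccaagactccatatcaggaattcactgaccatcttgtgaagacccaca
RPS3-250: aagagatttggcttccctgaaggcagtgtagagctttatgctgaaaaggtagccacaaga
RPS3-469: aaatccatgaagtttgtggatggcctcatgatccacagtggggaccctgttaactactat
RPS3-774: gcaaagacctttAATAAAatctttttaaaa
The last is again a window of 30 bases with AATAAA in capitals.

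**Figure D2:**
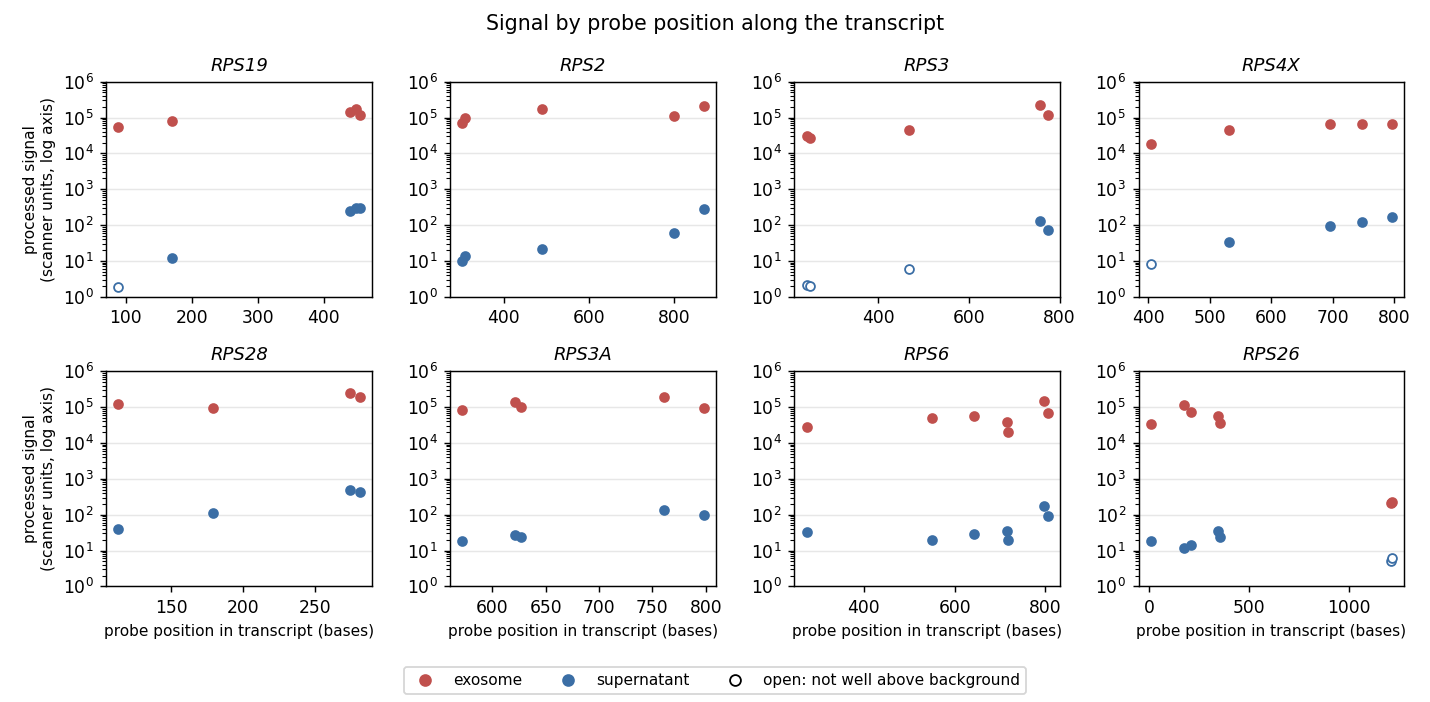
Processed signal, on a logarithmic axis in scanner units, against the start of the probe in its transcript in bases, for 8 genes, with exosome points above supernatant points and open points for probes not well above background. In RPS19 the gap between exosome and supernatant narrows to 9.24 on the log2 scale at position 439, against 12.70 at position 170; in RPS6 the outermost probes differ by 0.28 only. Position 8 of RPS26 and position 281 of RPS28 refer to other mRNA records of these genes.

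The same comparison was made over all members with 2 RefSeq probes of one transcript at least 100 bases apart, and 15 genes had such a pair of outermost probes. In 8 of them both outer probes were measured on both arrays, and in all 8 the difference was larger at the 5′ probe. It was larger by at least 2-fold in 6 of the 8, where 30.8% of the 195 such named genes showed this. The median excess of the 5′ probe was 2.36, from 0.28 in RPS6 to 3.36 in RPS2. Over all 195 named genes the median was -0.41 and 85, or 43.6%, had the larger difference at the 5′ probe. The excess of 0.28 in RPS6 is smaller than the largest deviation between overlapping probes, 0.71. The RPS6 probes in between did not follow the order of the outer ones, with unscaled differences of 9.77 at 274, 11.30 at 551 and 9.49 at 805.

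In 5 further members, RPS13, RPS19, RPS27, RPS3 and RPS4X, only the 3′ probe was detected in supernatant RNA. In these genes the excess of the 5′ probe was at least 1.04 to 3.86. The outer probes of RPS19 and of RPS27 share a transcript record but are annotated to different chromosomes. The RPS19 probe at 439, annotated to chromosome 18 like the 5′ probe, had an unscaled difference of 9.24, against at least 12.53 at the 5′ probe. Of the 4676 named genes with both outer probes detected in exosome RNA, 17.3% had only the 3′ probe detected in supernatant RNA, and 3266 had neither. Among pairs with exactly 1 end detected there, the 3′ probe was that end in 5 of 7 members, or 71.4%, and in 811 of 1215 named genes, or 66.7%, so the members lay near the general share. In RPS23 and RPS26 the last probe was detected in exosome RNA alone, with 482 and 221 there and 2.27 and 6.35 in supernatant RNA, so the order of their differences is unresolved. Large subunit protein genes had the members' order: in 12 of 14 measured genes the difference was larger at the 5′ probe, with a median excess of 1.62.

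**Figure D3:**
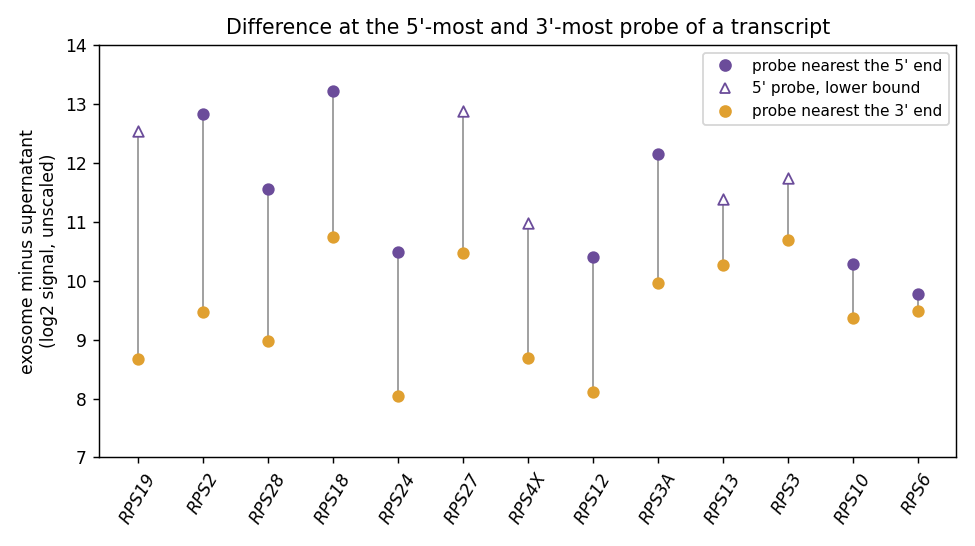
Difference between exosome and supernatant (log2, unscaled) at the outermost 5′ probe and at the outermost 3′ probe of the 13 members whose 3′ probe was detected in supernatant RNA; triangles are lower bounds. In the 8 genes measured at both ends the 5′ value is the larger, by 0.28 in RPS6 to 3.36 in RPS2.

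Probes that contain the polyadenylation signal AATAAA, searched in the transcript's direction, were common among the members. It was present in 26 of 88 RefSeq probes, or 29.5%, against 9.95% of all named RefSeq probes of the same length. All 26 were detected on both arrays, whereas of the 62 without it all were detected in exosome RNA and 47, or 75.8%, in supernatant RNA. Over all named RefSeq probes, 76.9% with AATAAA and 63.7% without it were detected in exosome RNA, and 24.6% and 12.4% in supernatant RNA. The order of detection is thus the same across the array. In 16 members with both kinds of probe measured, the difference was lower at the probes with AATAAA in 14, by a median difference of -1.17. The exceptions were RPS6 and RPS21, at 0.86 and 0.38. Over all named RefSeq probes measured on both arrays, the median unscaled difference was instead larger with AATAAA, 5.31 against 3.54. That comparison is between genes, and the within-gene share over all named genes was not computed. Many of the members' probes with AATAAA are their outermost 3′ probes, so this count is not separate from the result by position. In RPS6 and RPS3A the letters also occur in probes away from the 3′ end. A match to these letters is a description and not evidence of a used site.
RPS28-274: tgatctgctgttAATAAAgtgtttgtatcg
FAU-499: tcggctttctctAATAAAgccacttaaccc
RPS10-508: gttgaaagggattgttttgtgttgAATAAA
These windows of 30 bases come from 3 further members. The RPS28 probe had 253469 in exosome RNA and 502 in supernatant RNA, the FAU probe 142304 and 85.3, and the RPS10 probe 196007 and 267.

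Most probes that were dim in exosome RNA were designed on expressed sequence tags. The members had 88 RefSeq probes, of which 88 were detected in exosome RNA and 73 in supernatant RNA, against 65.0% and 13.6% of all named RefSeq probes. They had 12 tag probes in 11 genes, of which 1 was detected in exosome RNA, in RPS16 at a signal of 23.5, and 0 in supernatant RNA. Over all 550 named tag probes the shares were 37.8% in exosome RNA and 12.2% in supernatant RNA. Of the 12 tag probes, 8 have no position in the array's annotation, and the strand and target of the tag probes were not checked. The 2 of RPS29 lie at chr10:42700851-42700910 and chr10:42700500-42700559, inside the 1383-base stretch that the spliced RPS29 probe at 140 skips over. That spliced probe had 127944 in exosome RNA and 57.5 in supernatant RNA, whereas the tag probes had 2.43 and 3.08 in exosome RNA and 1.96 and 2.47 in supernatant RNA. In all, 25 probes of 16 members have an annotated position with a gap of at least 40 bases, as a probe across an exon junction would, and 25 of them were detected in exosome RNA and 19 in supernatant RNA.

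RPS12 has a probe whose annotated position runs on the strand opposite to that of its other probes.
RPS12-267: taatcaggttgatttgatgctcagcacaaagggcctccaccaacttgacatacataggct
RPS12-286: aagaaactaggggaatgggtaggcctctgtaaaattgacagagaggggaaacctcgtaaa
The first lies at chr9:73073791-73073850 on the minus strand and had 1026 in exosome RNA and 4.86 in supernatant RNA. The second lies at chr9:73074303-73074362 on the plus strand and had 124763 in exosome RNA and 92.5 in supernatant RNA. The minus-strand probe was detected in exosome RNA alone.

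Some members cannot be told apart from near-identical copies. Probes of FAU, RPS19, RPS27 and RPS28 are annotated to 2 chromosomes each, and 2 RPS4X probes also list the transcript of RPS4Y1. The RPS14 probe at 133, the only one of that gene detected, and the RPS28 probe at 281 list other records for which no gene name was found. The values of these genes may therefore include signal of related sequences. The RPS4X probe at 531 had 45476 in exosome RNA and 33.0 in supernatant RNA, and the 3 probes further 3′, which list no other gene, had 64829 to 67547 and 92.0 to 165.

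Genes that work with the small subunit were measured as lists. Of 46 large ribosomal subunit protein genes, all 46 were detected in exosome RNA and 44 in supernatant RNA, and all 44 measured exceeded the median gene by 2-fold or more, with a median of 6.60. They ran from RPLP2, a stalk protein, at 3.41 to RPL35 at 8.98. The 26 measured members and the large subunit genes thus overlapped in range. The 7 other small subunit genes and related copies on the array had 6 measured, all at least 2-fold above, with a median of 6.66. The one not measured on both, GNB2L1, the scaffold protein RACK1 of the small subunit, was detected in exosome RNA alone.

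Of 29 genes of translation initiation that act on the small subunit, all 29 were detected in exosome RNA and 8 in supernatant RNA, and the 8 measured exceeded the median gene by 2-fold or more, with a median of 5.90. Among the 8, PABPC1, which binds the poly(A) tail, lay at 6.86 and EIF1, which guards start codon choice, at 3.03. EIF3I, not detected in supernatant RNA, had up to 21301 in exosome RNA and up to 2.49 in supernatant RNA. The median and order thus cover the measured genes only. Of 31 genes of small subunit assembly, 30 were detected in exosome RNA and 5 in supernatant RNA; of those 5, 3 lay at least 2-fold above and 1 at least 2-fold below. Among those 5, RPS19BP1, a binding partner of RPS19, lay at 5.44 and RIOK3, a kinase of pre-ribosomal particles, at -1.64. FBL, not detected in supernatant RNA, had up to 5545 in exosome RNA and up to 2.68 in supernatant RNA.

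The mitochondrial ribosome's small subunit genes, which encode a separate set of proteins for translation in mitochondria, had 30 of 30 detected in exosome RNA and 8 of 30 in supernatant RNA. Of those 8, 6 exceeded the median gene by 2-fold or more and 2 lay at least 2-fold below, with a median of 3.09. Among the 8, MRPS18B lay at 4.15, whereas MRPS28 lay at -3.90. MRPS26, not detected in supernatant RNA, had 8503 in exosome RNA and 7.71 in supernatant RNA. The median and range thus leave out genes that may differ more. Of 8 genes that signal to ribosomal protein mRNAs or to RPS6, 4 were measured: PDCD4, a translation inhibitor degraded after S6 kinase signalling, at 4.89, RPS6KB2, an S6 kinase, at 1.96, LARP1, which binds the pyrimidine tract, at -0.61 and RPS6KA1 at -2.33. Over all 3540 genes, 1333 exceeded the median gene by 2-fold or more and 1299 lay at least 2-fold below.

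**Figure D4:**
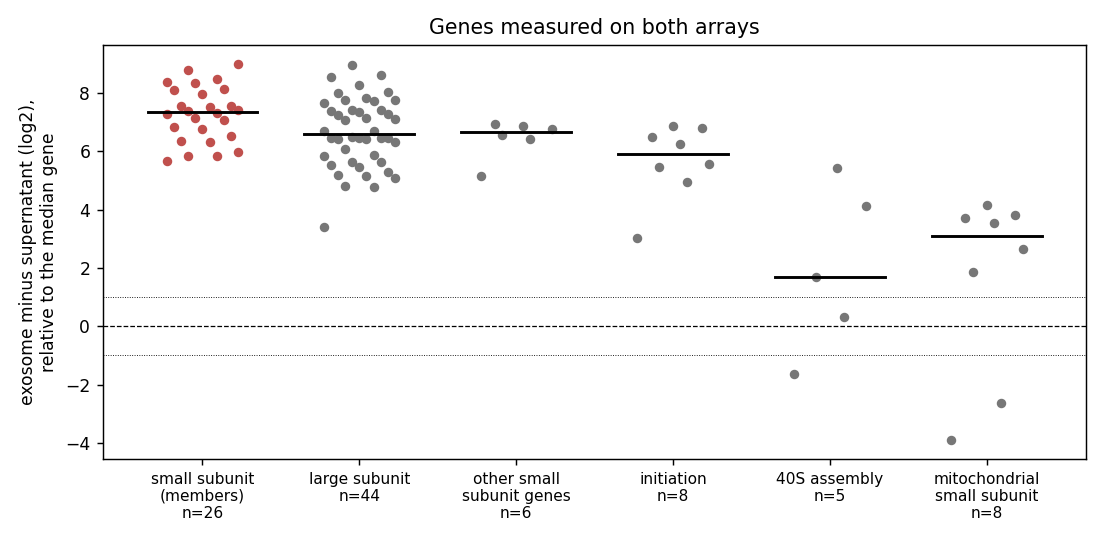
Difference between exosome and supernatant minus that of the median gene (log2) for each measured gene of the small subunit list and of the related lists, with the median of each list marked. The 26 measured small subunit genes lie between 5.67 and 9.0, and the large subunit genes have a median of 6.60. The 8 measured mitochondrial small subunit genes spread from -3.90 to 4.15. Genes not detected in supernatant RNA have no difference and are not shown.

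Marker genes of the cells that milk can hold moved in different ways. All 7 markers of secretory mammary epithelium were detected on both arrays, with a median of 7.26 above the median gene and a range from 4.31 in PAEP to 9.20 in CSN1S2. Of 5 luminal epithelium markers, 5 were detected in exosome RNA and 2 in supernatant RNA, KRT19 at 5.91 and KRT8 at 1.76. Of 8 leukocyte markers, 7 were detected in exosome RNA and 5 in supernatant RNA, with a median of -2.17 over those measured, and CD3E, a T cell marker, was detected on neither. Of the red cell genes, HBA was detected on both arrays, at 0.95, and HBB on neither. Of 5 vesicle markers all were detected in exosome RNA, and CD9 and TSG101 were measured on both, at 2.58 and 3.88, while CD63, CD81 and PDCD6IP were detected in exosome RNA alone. The part of these markers' cells in the members' differences was not tested.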

How the data were processed

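The deposited files are scanner outputs of 1-colour Agilent arrays, 1 for the exosome and 1 for the supernatant fraction. Feature Extraction 10.7.3.1 was used, per the submitters' processing notes. The processed signal is an intensity that was background-subtracted and spatially detrended, per the file headers, and it was not scaled between arrays. The authors' value table, on a log2 scale by comparison with the scanner values, equals log2 of these intensities within 0.001 and was used as an alternative.

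Control spots and outlier spots (5 exosome, 2 supernatant; 0 saturated; none a member's) were left out, spots of 1 probe were averaged, and log2 was taken. A probe counted as detected where the scanner software set its well-above-background flag. Differences were averaged over those probes of a gene that both arrays detected. Differences were set against the median gene. The planned 75th-percentile scaling is given beside it. R 4.3.3 with limma 3.58.1 and Python 3.11.15 with pandas 2.3.3 were used, and the scripts were tested on simulated data. Names are those of the array design: 35130 probes carry 1, 8522 none. Many genes named outside the 28 are the highest and lowest measured genes of their list. Others are named because they were not measured on both arrays, belong to a short list or share a probe's annotation with a member. The precision is limited by having 1 array per fraction. The members, lists and named genes were chosen with earlier results of these data known. Alternatives were scaling, background correction, detection filters, probe summaries and probe choice.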

Additional observations from a re-analysis of the deposited data

How the results depend on the processing

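No result changed direction. In every setting run, all measured members stayed at least 2-fold to the exosome side. In the scaling settings this is set against equal signals on both arrays, and in the others against the median gene. The median difference of the members was 7.35 above the median gene. Set against equal signals, it was 10.77 without scaling, 5.21 with the 75th percentile of all probes and 5.32 with that of probes detected on both arrays. It was 4.73 after quantile normalization and 8.81 with spike-in scaling. These values are a different quantity, because a constant scaling does not move a difference relative to the median gene. After 75th-percentile scaling the median gene lay at -2.15. Relative to the median gene, the members' median was 6.93 with a stricter detection filter and 7.10 without one. It was 6.83 with the brightest probe of a gene and 7.58 where all its probes had to be detected. Alternatives chosen after seeing the data gave 6.18 with only the RefSeq probe nearest the 3′ end and 8.0 with only the one nearest the 5′ end. Requiring all probes left 18 members detected in exosome RNA and 8 in supernatant RNA, with 8 at least 2-fold above the median gene. The stricter filter left 47 supernatant probes in place of 76. The 464 single-gene values under an alternative include those set against equal signals. Of them, 203 moved by less than 0.18, the SD of 9 probes spotted 4 times, none a member's, 261 moved by more and 0 reversed. No paired analysis was possible because each fraction has 1 array, and no array could be left out. Low signal limits the supernatant values, where the members' dimmest measured probe had 9.86 and the lowest well-detected probe 9.04.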

Other observations

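RPS27 has a probe on a non-coding transcript variant, at position 1069, with 869 in exosome RNA and 1.82 in supernatant RNA, where it was not well above background. RPS4Y1, named for a Y-linked copy of RPS4X, is annotated to chromosome 23 on this array and had 27741 in exosome RNA and 22.4 in supernatant RNA.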
